A study of Mus musculus with 2 samples.

Results

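Isolated heart p300 peaks are peaks of the embryonic heart list that stand alone along a chromosome. A heart peak on chromosomes 1 to 19 was kept when no other heart peak and no midbrain peak had its midpoint within 200 kb of its own midpoint. The rule found 689 of the 3576 heart peaks on these chromosomes (19.3%, exact Clopper-Pearson 95% interval 17.99 to 20.6), out of 6383 peaks listed in both tissues. The other 2887 heart peaks on these chromosomes are called the remaining heart peaks. Tissue came from embryos of the outbred CD-1 strain at embryonic day 11.5, with 1 library for the heart and 1 for the midbrain, each from pooled tissue of about 150 animals of mixed sex and immunoprecipitated with an antibody to p300. The protocol text shared by both samples names forebrain, midbrain and limb, and says nothing of how hearts were taken. Depth was 1303861 aligned reads for the heart and 5869671 for the midbrain, so 1 heart read equals 0.767 rpm, the library-scaled read number, and 1 midbrain read equals 0.170 rpm. A single library per tissue gives no replicate check, and tissues could not be tested against each other. Intervals of read numbers below cover counting error only, and intervals of shares treat each peak as a separate draw.

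p300 is a histone acetyltransferase that is brought to DNA by sequence-specific transcription factors and acetylates nearby histones. Its binding away from promoters is widely used to find active enhancers, the elements that raise transcription of a gene over a distance. In embryonic tissue, genes of developmental regulators are often surrounded by several enhancers, while other genes are served by an element that has no neighbour. Positions are given on the mouse build mm9, as deposited. Genes near the peaks and the DNA sequence of the peaks were not analysed here, and the tissue labels were not checked against marker genes. In pooled tissue, fewer cells with a bound site and weaker binding per cell cannot be told apart.

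The membership rule used the positions of both lists, and both lists came from the reads counted here. The distances below, the absence of shared peaks and the excess of heart reads are therefore descriptions of how the members were chosen. The read densities around the members also describe in part how they were chosen, because the rule searched those surroundings for listed peaks. Among the members, the median distance to the nearest listed peak of either tissue was 365 kb (quartiles 264 and 550 kb, highest 5421 kb), against a median of 42.9 kb over all 3576 heart peaks. The nearest listed peak was a heart peak for 429 members (62.3%) and a midbrain peak for 260. For 205 members it lay more than 500 kb away, and for 46 more than 1000 kb away. Without the condition on midbrain peaks 1045 heart peaks would have qualified, and 356 of these were left out because a midbrain peak lay within 200 kb. None of the members can overlap a midbrain peak, while 154 of the remaining heart peaks did.

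The members were spread over every chromosome from 1 to 19. They made up 13.7% of the heart peaks of chromosome 4 (34 of 248, interval 9.68 to 18.6) and 14.0% of those of chromosome 11 (37 of 264, interval 10.1 to 18.8). At the other end they made up 26.3% of the heart peaks of chromosome 12 (36 of 137, interval 19.1 to 34.5) and 25.2% of those of chromosome 15 (38 of 151, interval 18.5 to 32.9). Few members lay at the edge of the mapped sequence, with 2 within 200 kb of the first or last midbrain read of their chromosome. A 10 kb stretch without any midbrain read lay within 200 kb of 33 members (4.79%, interval 3.32 to 6.66) and of 94 remaining heart peaks (3.26%, interval 2.64 to 3.97).

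The isolated peaks were about as wide as the remaining heart peaks and ranked slightly lower. Their median width was 646 bp (quartiles 548 and 779 bp, range 191 to 1785 bp), against 665 bp (quartiles 539 and 795.5 bp) for the remaining heart peaks, and 45.3% of them (interval 41.5 to 49.1) were wider than that second median. The median rank was 1954 for isolated and 1748 for remaining heart peaks, where rank 1 is the best. The share of isolated peaks was 13.0% among heart peaks of rank 1 to 500 (interval 10.2 to 16.3). It was 17.8% at rank 501 to 1000 (interval 14.6 to 21.5) and 19.7% at rank 1001 to 2000 (interval 17.3 to 22.4). Beyond that it was 20.4% at rank 2001 to 3000 (interval 17.9 to 23.1) and 23.1% at rank 3001 to 3597 (interval 19.7 to 26.7). The best-ranked peaks of this heart list were thus less often isolated. The intervals treat each peak as a separate draw, although neighbouring peaks decide each other's isolation, so no test is read from them.

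Reads were counted in a peak when the middle of the read, as lengthened to 300 bp by the authors, lay inside it. The 689 isolated peaks held a mean of 6.02 heart reads (interval 5.84 to 6.21, equal to 4.62 rpm) and the remaining peaks 6.44 (interval 6.34 to 6.53, equal to 4.94 rpm), a ratio of 0.936 (interval 0.905 to 0.968). In comparisons chosen after the data had been seen, the ratio was 0.971 against remaining peaks with no other listed peak within 10 kb (interval 0.937 to 1.006) and 0.971 against those with none within 100 kb (interval 0.926 to 1.018), and both intervals include 1. The median was 5 reads in isolated peaks (range 1 to 21) and 6 in the remaining ones (range 1 to 33). Exactly 5 heart reads were found in 336 isolated peaks (48.8%) and 6 in 144. Peaks with 10 or more heart reads made up 5.08% of the isolated peaks (35 peaks, interval 3.56 to 6.99) and 9.56% of the remaining ones (276 peaks, interval 8.51 to 10.7). The lower mean of the isolated peaks came with this smaller share of high counts.

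**Figure D1:**
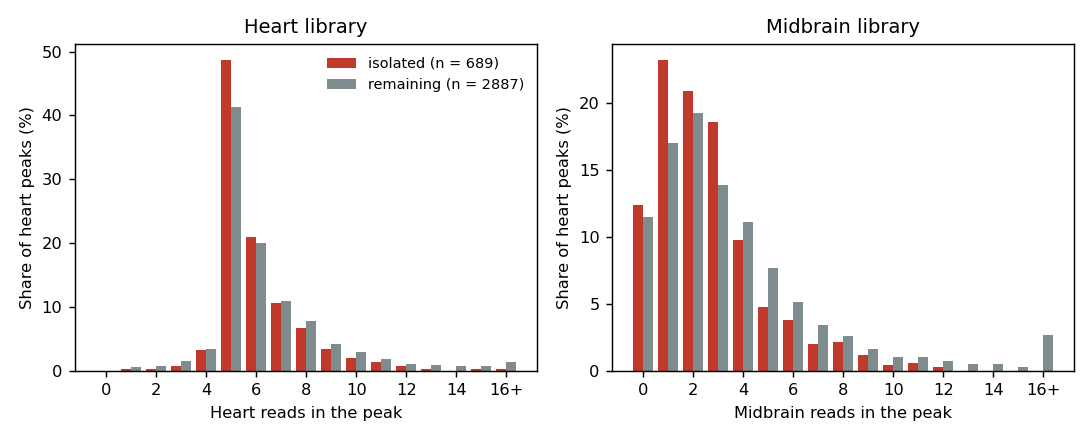
Share of heart peaks (vertical axis, percent) by the number of heart reads (left) or midbrain reads (right) in the peak, for 689 isolated and 2887 remaining heart peaks. Both groups have their highest bar at 5 heart reads, and the bars at 10 or more heart reads and at 5 or more midbrain reads are lower for the isolated peaks.

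Peaks were then compared within classes of rank. At rank 1 to 500 the isolated peaks held a mean of 9.89 heart reads and the remaining ones 10.9, a ratio of 0.906 (interval 0.833 to 0.984). In the other 4 rank classes the ratio of heart reads per peak lay between 1.002 and 1.018, and each interval included 1. Because the rank follows the reads, a match on rank is close to a match on heart reads, and ratios near 1 follow from it.

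Heart density at the peak centre was much the same in both groups, and density in the surroundings was not. The peaks were picked from heart reads and the rule searched the surroundings, so neither value is independent of the choice. Within 250 bp of the midpoint the heart library reached 7.12 rpm per kb at isolated peaks and 7.35 at remaining peaks, a ratio of 0.968. Between 0.25 and 0.5 kb from the midpoint the values were 2.46 and 2.84 rpm per kb, a ratio of 0.867. Between 0.5 and 1 kb they were 1.02 and 1.36 rpm per kb, a ratio of 0.748. Between 5 and 10 kb they were 0.536 and 0.714, a ratio of 0.751, and between 100 and 200 kb 0.452 and 0.539, a ratio of 0.840. Reads and bases inside other listed peaks were left out of these densities. Listed peaks that overlap the heart peak itself were not left out, nor were reads just beyond the edges of listed neighbours. Listed neighbours can thus still add to the densities around remaining peaks. The mean over the 10 kb bins of chromosomes 1 to 19 that hold midbrain reads was 0.407 rpm per kb, and isolated peaks remained above it in every ring out to 200 kb.

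**Figure D2:**
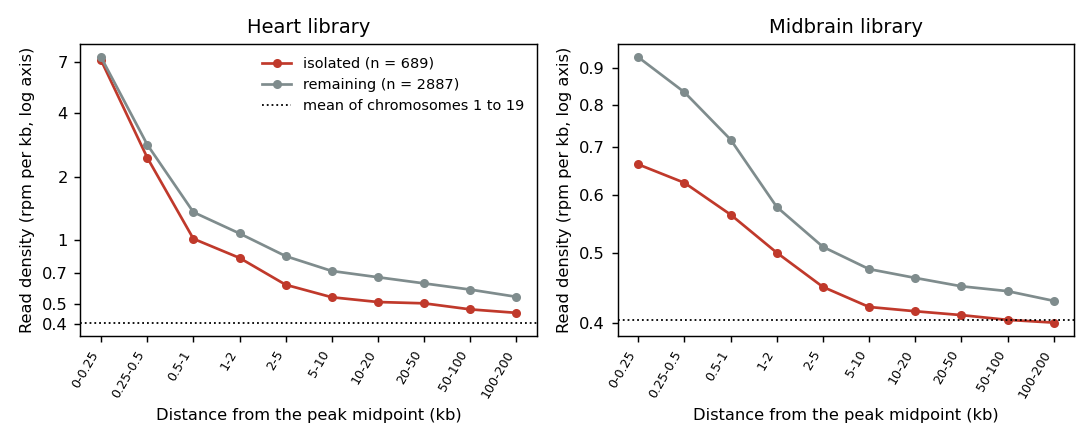
Read density (rpm per kb, log axis) in rings of distance from the peak midpoint (horizontal axis, kb), for heart reads (left) and midbrain reads (right). Reads and bases inside other listed peaks were left out, and the dotted line is the mean of chromosomes 1 to 19. The lines of isolated and remaining peaks start close together in the heart panel and part beyond 0.25 kb. In the midbrain panel the isolated line lies below the other throughout and meets the dotted line at 50 to 100 kb. The remaining peaks include those that overlap a midbrain peak.

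Against all remaining heart peaks, the midbrain library showed a smaller gap in the surroundings and a larger one at the centre. Within 250 bp of the midpoint of isolated heart peaks it held 0.662 rpm per kb, against 0.930 at remaining heart peaks, a ratio of 0.711. Between 5 and 10 kb the values were 0.420 and 0.474 (ratio 0.887), and between 100 and 200 kb 0.4001 and 0.429 (ratio 0.933). These remaining peaks include those that overlap a midbrain peak, which the rule bars from the members. Against remaining peaks without such overlap, the ratio of midbrain density was 0.849 inside the peak (interval 0.807 to 0.893). In the flanks 5 to 10 kb away it was 0.878 (interval 0.863 to 0.892), and these intervals overlap. The mean over chromosomes 1 to 19 was 0.404 rpm per kb, so far from an isolated heart peak the midbrain density was close to that of the chromosomes as a whole. Peak by peak, the midbrain library held a median of 903 reads at 10 to 200 kb from isolated peaks (quartiles 822 and 977) and 976 from remaining peaks (quartiles 883.5 and 1074). For heart reads the medians were 234 (quartiles 197 and 266) and 291 (quartiles 251 and 337), with listed neighbours included in these per-peak counts. The quartile ranges overlap in both libraries. With the reads and bases inside other listed peaks left out, the density at 10 to 200 kb was also compared by chromosome. It was lower around isolated peaks on 19 of 19 chromosomes for heart reads and on 17 of 19 for midbrain reads. The rule searched these windows for listed peaks, so these counts are descriptions. Windows of neighbouring peaks overlap, above all among the remaining peaks, so their counts are not independent. DNA composition and mappability were not measured, and their part in these densities was not tested.

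The flank enrichment of a peak is its read density divided by the density 5 to 10 kb away on both sides. Heart reads were 12.8 times as dense in isolated peaks as in their flanks (interval 12.3 to 13.3) and 9.07 times as dense in remaining peaks (interval 8.90 to 9.24). The enrichment of the isolated peaks was thus 1.41 times that of the others (interval 1.35 to 1.48), and it was higher on 19 of 19 chromosomes. Both values are against all remaining peaks, with listed neighbours in their flanks included. The count by chromosome was not made for remaining peaks without near neighbours. The difference in enrichment lay in the denominator. Heart density inside the peaks was 8.91 reads per kb in isolated and 9.33 in remaining peaks, a ratio of 0.956 (interval 0.924 to 0.988). Heart density in the flanks was 0.697 and 1.03 reads per kb, a ratio of 0.677 (interval 0.657 to 0.698). With the flank density subtracted, the excess of heart reads was 8.22 reads per kb in isolated peaks (interval 7.95 to 8.49) and 8.30 in remaining ones (interval 8.16 to 8.43), and these intervals overlap.

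Part of the flank reads of the remaining peaks belong to listed neighbours. Against the 1896 remaining heart peaks with no other listed peak within 10 kb, whose enrichment was 10.7 (interval 10.4 to 10.9), the ratio of enrichments fell to 1.20 (interval 1.14 to 1.26). Their flanks held 0.855 heart reads per kb, still denser than those of isolated peaks, with a ratio of 0.815 (interval 0.789 to 0.842). The distance is taken between midpoints, so a listed neighbour just beyond 10 kb can still reach into such a flank. Against remaining peaks with none within 100 kb the ratio of enrichments was 1.09 (interval 1.02 to 1.16). Against all remaining heart peaks, with listed neighbours in their flanks included, the higher enrichment was seen within each class of rank. The ratios ran from 1.30 at rank 501 to 1000 (interval 1.16 to 1.46) to 1.55 at rank 1 to 500 (interval 1.36 to 1.75).

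**Figure D3:**
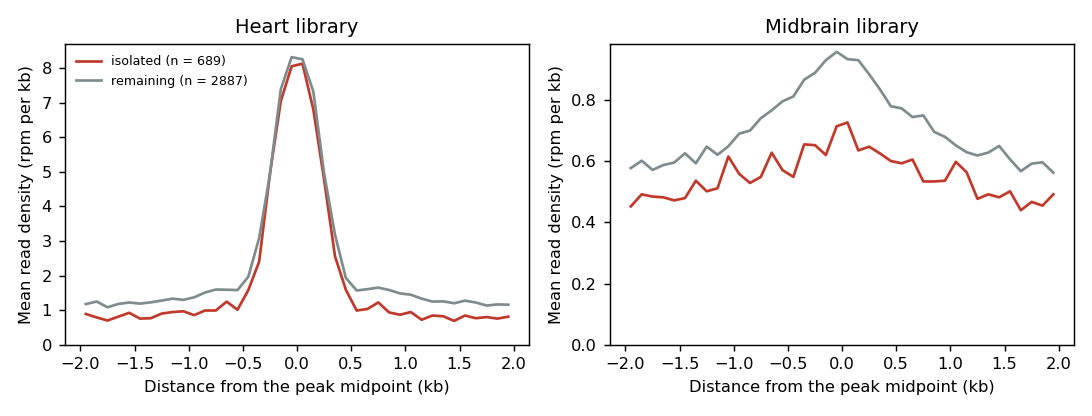
Mean read density (rpm per kb) in 100 bp steps against distance from the peak midpoint (kb), for heart reads (left) and midbrain reads (right) at isolated and remaining heart peaks. The heart lines nearly coincide in the centre, at 8.13 and 8.31 rpm per kb at their highest. The isolated heart line runs lower on both sides. The midbrain lines reach 0.727 and 0.958 rpm per kb, with peaks that overlap a midbrain peak among the remaining ones.

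Enrichment changed gradually with distance to the nearest listed peak, without a step at 200 kb. Heart reads were 7.15 times as dense as in the flanks at the 991 heart peaks with a listed peak within 10 kb (interval 6.94 to 7.36) and 9.88 times at 10 to 50 kb (interval 9.55 to 10.2). The values were 11.2 at 50 to 100 kb (interval 10.7 to 11.8) and 11.8 at 100 to 200 kb (interval 11.2 to 12.4). Among the members it was 12.5 at 200 to 500 kb (484 peaks, interval 11.9 to 13.2), 13.4 at 500 to 1000 kb (159 peaks, interval 12.2 to 14.6) and 14.1 beyond 1000 kb (46 peaks, interval 11.9 to 16.6). The intervals of the 3 member classes overlap one another, and that of the class just below the limit overlaps that of the class just above. In a narrower band the order was the other way round: the 136 members with a nearest listed peak at 200 to 250 kb had an enrichment of 11.0 (interval 10.1 to 12.1), and the 200 remaining peaks at 150 to 200 kb had 12.6 (interval 11.6 to 13.6). The mean number of heart reads was highest within 10 kb, at 6.88 (interval 6.72 to 7.04). It was 6.21 at 100 to 200 kb, 6.10 at 200 to 500 kb and 5.79 at 500 to 1000 kb (interval 5.42 to 6.17). Beyond 1000 kb it was 6.04. Among the 689 members the Spearman correlation of distance with heart reads was -0.11, given as a description because peaks share their library.

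**Figure D4:**
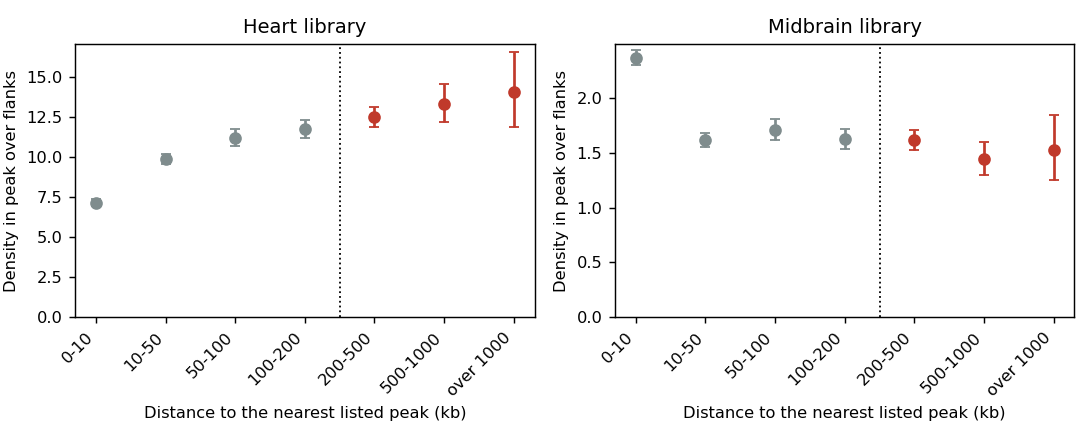
Read density in heart peaks over the density in their flanks (vertical axis, fold) by distance to the nearest listed peak of either tissue (kb), for heart reads (left) and midbrain reads (right). Points are pooled values with 95% counting intervals, red points right of the dotted line are members, and the heart values run from 7.15 to 14.1 while the midbrain values beyond 10 kb lie between 1.44 and 1.71.

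Midbrain reads were fewer in isolated heart peaks than in the others, and the rule accounts for part of this because it bars shared peaks. Isolated peaks held a mean of 2.63 midbrain reads (interval 2.51 to 2.75, equal to 0.447 rpm), with a median of 2 and a range of 0 to 12. The remaining peaks held a mean of 3.81 (interval 3.74 to 3.89, equal to 0.650 rpm), with a median of 3 and a range of 0 to 58. The ratio was 0.688 (interval 0.655 to 0.724). Against the 2733 remaining heart peaks that overlap no midbrain peak, which held a mean of 3.12 (interval 3.06 to 3.19), the ratio was 0.841 (interval 0.799 to 0.884). No midbrain read was found in 85 isolated peaks (12.3%, interval 9.97 to 15.0) and in 332 remaining ones (11.5%, interval 10.4 to 12.7), where a count of 0 allows up to 3 reads or 0.511 rpm per peak. The groups differed at the upper end instead: 5 or more midbrain reads were found in 105 isolated peaks (15.2%, interval 12.6 to 18.1) and in 638 of the remaining peaks without midbrain overlap (23.3%, interval 21.8 to 24.98).

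Midbrain reads were nevertheless denser in isolated heart peaks than beside them. The flank enrichment was 1.57 (interval 1.49 to 1.65), against 1.94 (interval 1.90 to 1.97) in all remaining heart peaks and 1.62 (interval 1.59 to 1.66) in those without midbrain overlap. The isolated peaks thus had 0.811 times the enrichment of all remaining peaks (interval 0.769 to 0.854) and 0.967 times that of the remaining peaks without midbrain overlap, with an interval of 0.917 to 1.02 that includes 1. As a difference rather than a fold, the excess over the flanks was 1.41 midbrain reads per kb in isolated peaks (interval 1.23 to 1.59) and 1.76 in remaining peaks without midbrain overlap (interval 1.66 to 1.85). On 17 of 19 chromosomes the midbrain enrichment was lower in isolated than in all remaining heart peaks. That comparison includes the peaks with midbrain overlap, which the rule bars from the members. The count by chromosome was not made for the remaining peaks without midbrain overlap, so nothing is read from it.

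**Figure D5:**
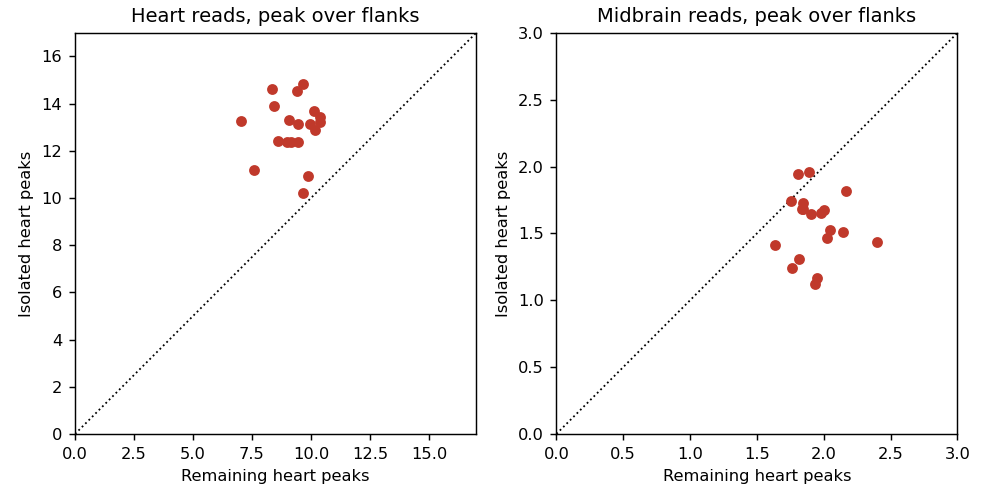
Read density in peaks over flanks for isolated heart peaks (vertical axis, fold) against remaining heart peaks (horizontal axis, fold), 1 point per chromosome from 1 to 19, for heart reads (left) and midbrain reads (right), with equality as a dotted line. For heart reads 19 of 19 points lie above the line, with 10.2 to 14.8 in isolated peaks, and for midbrain reads 17 lie below it. The remaining peaks include those that overlap a midbrain peak, which the rule bars from the members, and those with listed neighbours in their flanks.

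Taken singly, a minority of members held midbrain signal above their flanks. The interval of the midbrain enrichment lay above 1 in 82 isolated peaks (11.9%, interval 9.58 to 14.6), against 16.2% of all 3576 heart peaks and 13.2% of the remaining ones without midbrain overlap (interval 11.996 to 14.6). Pooled over the other 607 members the midbrain enrichment was 1.23 (interval 1.16 to 1.30). The 82 peaks, chosen by their midbrain reads, had a median heart rank of 1606 and a mean of 6.78 heart reads (interval 6.23 to 7.37). Those 607 members had a median rank of 2026 and a mean of 5.92 heart reads (interval 5.73 to 6.12). Members with more midbrain reads thus also tended to hold more heart reads, and over all 689 members the Spearman correlation of the numbers was 0.28, with peak width shared by both. In the heart library the interval of the enrichment lay above 1 in 683 isolated peaks (99.1%), against 97.3% of all heart peaks, which were picked from these reads.

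Set against each other in rpm, heart reads were 10.3 times midbrain reads over all isolated peaks (interval 9.77 to 10.9). The ratio was 7.597 over all remaining heart peaks (interval 7.42 to 7.78) and 9.14 over those without midbrain overlap (interval 8.90 to 9.38). Taken singly, 658 isolated peaks (95.5%) had a ratio whose interval lay above 1, against 89.9% of all heart peaks, and nothing is read from this count because the rule used both lists. In 0 isolated peaks did it lie below 1 (upper bound of the exact interval 0.534%), and likewise in 0 of all 3576 heart peaks (upper bound 0.103%). All of these peaks were picked from heart reads, so nothing about the members is read from this count.

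The few reads of an isolated peak were placed as at other heart peaks. Reads of both strands were present in 659 isolated peaks (95.6%, interval 93.8 to 97.0) and in 94.5% of the remaining ones (interval 93.6 to 95.3). With several reads per peak, both strands are mostly present even if strands fall at random, so these shares say little about placement. Read starts on the plus strand lay on average 81.0 bp before the midpoint of isolated peaks and those on the minus strand 74.9 bp after it, and the values for remaining peaks were 77.3 and 74.1 bp. The plus strand gave 50.04% of the heart reads of isolated peaks. In the deposited coverage track the highest heart coverage within an isolated peak had a median of 4 reads (quartiles 3 and 5, highest 9), and 91.0% of these summits lay within 200 bp of the midpoint. The remaining peaks had the same median and quartiles, with a highest value of 14 and 88.1% within 200 bp. Midbrain coverage within isolated peaks had a highest value with a median of 2 reads.

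Isolation from listed peaks was not isolation from heart signal of like height. A stretch of heart coverage of at least 4, the median summit of the peaks themselves, that overlapped no listed peak lay within 200 kb of 415 isolated peaks (60.2%, interval 56.5 to 63.9) and of 2256 remaining peaks (78.1%, interval 76.6 to 79.6). For a coverage of at least 5 the numbers were 147 isolated peaks (21.3%, interval 18.3 to 24.6) and 1029 remaining ones (35.6%, interval 33.9 to 37.4). Such unlisted stretches numbered 5158 and 1252 over chromosomes 1 to 19, after leaving out 39 and 41 that were higher than any listed peak. The 274 members without an unlisted stretch of at least 4 had a mean of 5.90 heart reads (interval 5.62 to 6.20), and the 415 with one had 6.11 (interval 5.87 to 6.35). The number of such stretches also rises with read density, which was lower around isolated peaks, and its part in the difference was not tested.

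The best-ranked isolated peaks were mostly wide and well covered for this library. The one with the best rank (20) lay on chromosome 12 at 84173939 to 84174924, with 594 kb to the nearest heart peak and 1919 kb to the nearest midbrain peak. It held 16 heart reads and 8 midbrain reads, a library-scaled ratio of 9.004 (interval 3.64 to 24.3), with 12 of the heart reads on the plus strand and 4 on the minus strand. Its midbrain density was 4.51 times that of its flanks (interval 1.70 to 10.9), so this peak carried signal in both libraries although the midbrain list has no peak there.

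The second, with rank 31, lay on chromosome 12 at 70858270 to 70860054 and was the widest isolated peak (1785 bp). Its 21 heart reads were the highest number among the members, and its 5 midbrain reads gave a midbrain enrichment of 0.875 with an interval that includes 1 (0.266 to 2.26). Rank 80 belonged to a peak on chromosome 13 at 57678958 to 57679547 with 10 heart reads, 9 of them on the minus strand, and 3 midbrain reads. Rank 94 (chromosome 7 at 87933850 to 87934606) had 11 heart and 6 midbrain reads. Rank 96 (chromosome 8 at 87902963 to 87904304) had 15 heart and 8 midbrain reads. The first of these 3 peaks had a midbrain enrichment whose interval included 1 (1.41, interval 0.278 to 4.47), and the other 2 had one above 1.

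The other 5 named by rank held 9 to 15 heart reads. Rank 111 (chromosome 15 at 97209917 to 97210594) had 10 heart and 4 midbrain reads. Rank 115 (chromosome 11 at 57775541 to 57776494) had 12 heart and 9 midbrain reads, the lowest heart over midbrain ratio of the 10 (6.002, interval 2.32 to 16.1). The peak on chromosome 5 at 38900226 to 38901195 (rank 122) held 12 and 8 reads and lay 1796 kb from the nearest listed peak, the farthest of the 10. In contrast to these, the peak on chromosome 5 at 93056879 to 93057360 (rank 141) was narrow (482 bp) and held 9 heart reads against 1 midbrain read, with 2 heart reads in its flanks and a heart enrichment of 93.4 whose interval ran from 19.3 to 888. The last, on chromosome 11 at 115703175 to 115704785 (rank 168), held 15 and 8 reads.

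The isolated peaks with the most midbrain reads were named as a second set. The highest number was 12 midbrain reads, at 2 peaks: chromosome 5 at 138611853 to 138612748, with 8 heart reads, and chromosome 6 at 15136484 to 15137455, with 6 heart reads. A number of 11 was found at 4 peaks, of which the 3 with the best ranks are named: chromosome 6 at 117828724 to 117830500 (13 heart reads), chromosome 5 at 113561851 to 113562692 (8 heart reads) and chromosome 9 at 20349413 to 20350095 (7 heart reads). The last of these had a midbrain enrichment of 12.4 (interval 5.03 to 30.0) and a midbrain coverage of 9, the highest of the 5 in both measures. Its heart over midbrain ratio was 2.86 (interval 0.942 to 8.09), and the interval included 1 there and at the chromosome 6 peak with 12 midbrain reads. Each of these 5 had a midbrain enrichment with an interval above 1, for which they were in effect chosen.

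The peaks farthest from any other listed peak held few reads. The farthest, on chromosome 14 at 92732437 to 92733252, lay 5421 kb from a midbrain peak and 6081 kb from a heart peak, and held 5 heart and 3 midbrain reads at rank 3580. The next, on chromosome 12 at 21141572 to 21142162, lay 3629 kb from a heart peak and held 6 heart and 2 midbrain reads. The third, on chromosome 6 at 131337286 to 131338025, lay 2769 kb from a midbrain peak and held 8 heart and 4 midbrain reads at rank 450. The fourth, on chromosome 10 at 3443759 to 3444584, held 5 heart reads and 1 midbrain read with a heart coverage of no more than 2. The fifth, on chromosome 14 at 8785334 to 8785802, held 6 heart reads and 1 midbrain read. The surroundings of the first 4 were thin in heart reads, with 110, 156, 119 and 157 reads at 10 to 200 kb, while the fifth had 253. A window of that size holds 201.5 heart reads at the mean of chromosomes 1 to 19. Midbrain reads in the first 4 windows were also below their mean of 900.8, at 819, 517, 577 and 812, and the fifth had 918.

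The limit of 200 kb cut through a continuous scale. Just inside it stood a pair of heart peaks on chromosome 9, at 56920927 to 56921803 (8 heart and 5 midbrain reads) and at 56721035 to 56721665 (5 and 0 reads), which are each other's nearest peak at 200.02 kb. The next was on chromosome 15 at 89203414 to 89204408 (9 and 5 reads), with a heart peak at 200.1 kb. Just outside stood the peak on chromosome 17 at 80254751 to 80255418 (5 and 0 reads), with a heart peak at 199.3 kb. It was followed by chromosome 15 at 84049332 to 84050173 (8 and 0 reads) and chromosome 6 at 91495733 to 91497113 (10 and 4 reads), with midbrain peaks at 198.9 and 198.3 kb. Heart reads thus ran from 5 to 9 in the 3 peaks inside the limit and from 5 to 10 in the 3 outside it.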

How the data were processed

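Chromatin immunoprecipitation and sequencing of p300 gave 1 library each from heart and midbrain at embryonic day 11.5, read as 36 bp reads after selection at 300 to 500 bp, per the labels' protocols. The build is mm9, per the submitters' processing notes and the file headers. The authors deposited aligned reads, 1 per line with a constant score of 1, and lengthened all but 24 heart and 48 midbrain reads to 300 bp, as checked on the positions. No position and strand occurred more than 1 time, so repeated reads had been collapsed. The authors also deposited a coverage signal in whole numbers at 25 bp steps, unscaled, made per the file headers from the lengthened unique reads. Their peak lists hold a start, an end and a rank. How peaks were called, and whether against a control, is not given in the sources used here.

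Members, neighbours and reads were computed in Python 3.11.15 (scipy 1.17.1, pandas 2.3.3, numpy 2.4.6, figures in matplotlib 3.10.9). Reads were placed 150 bp from their 5 prime end, the middle of the lengthened read, and scaled to all aligned reads of the library (rpm). Ratios carry exact conditional binomial 95% intervals, shares exact Clopper-Pearson intervals, and ratios of enrichments and differences of densities intervals from the Poisson variance. Mean reads per peak carry exact Poisson intervals. Reads were amplified and carry no molecular identifiers, so they need not be separate molecules. Intervals of read numbers and the limit of 3 reads for a count of 0 describe counting error alone. Intervals of shares treat each peak as a separate draw. Peaks are not replicates, so no p-value was computed. The computation was tested on simulated data. Unlisted stretches are runs of heart coverage joined across gaps of up to 100 bp.

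The members, classes and comparisons were chosen with earlier results of these data known. Peaks named by position, which leave out chromosome 18, are the 10 isolated peaks with the best rank, the 5 with most midbrain reads (ties broken by rank), the 5 farthest from any listed peak, and 3 on each side of the 200 kb limit. The planned comparison of sequence features was left out because the reference used here is of another build than mm9. Alternatives were other distance limits and measures, joined peaks, other comparison peaks, ranks, read placements, flanks and equal depth.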

Additional observations from a re-analysis of the deposited data

How the results depend on the processing

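Each of 7 results was computed again under other settings, which gave 64 values. Of these, 52 lay inside the reported value's own interval (for the number of members, within a factor of 1.5), 12 lay outside, and 0 changed direction. The comparison peaks cannot move the heart over midbrain ratio of the members, so that value says nothing about stability. The number of isolated peaks was 1175 with a limit of 100 kb and 205 with 500 kb. Against remaining peaks without midbrain overlap, the isolated over remaining ratio of midbrain reads per peak was 0.841. That of midbrain flank enrichment was 0.967 (interval 0.917 to 1.02). The other moved values belong to comparisons chosen after the data had been seen. Against remaining peaks with no other listed peak within 10 kb, the ratio of heart reads per peak was 0.971 (interval 0.937 to 1.006). That of midbrain reads per peak was 0.887. The ratio of flank enrichment was 1.20 for heart reads and 0.956 for midbrain reads (interval 0.904 to 1.01). Against those with none within 100 kb, the ratio of heart reads per peak was 0.971 (interval 0.926 to 1.018). That of midbrain reads per peak was 0.922. The ratio of flank enrichment was 1.09 for heart reads and 0.967 for midbrain reads (interval 0.898 to 1.04). In each of these comparison sets the interval for midbrain flank enrichment included 1, so its difference from 1 was not resolved there. With a median of 5 heart reads, the fold of 1 peak is known only within wide bounds. No paired analysis was possible because each tissue has 1 library.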

Other observations

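The same rule applied to chromosome X, which lies outside the definition of the members, would keep 12 of its 21 heart peaks (57.1%). The share was 19.3% on chromosomes 1 to 19, which hold 101 to 296 heart peaks each. The part of the smaller number of listed peaks on chromosome X in this share was not tested. The order of the heart list followed width closely among peaks with equal heart reads: the Spearman correlation of rank with width was 0.95 over the 1527 peaks with 5 heart reads and 0.99 over the 720 with 6, where a wider peak had the worse rank. A count of 3 or fewer heart reads was found in 9 isolated peaks (1.31%, interval 0.599 to 2.47) and 83 remaining ones (2.87%, interval 2.30 to 3.55). At 2 of these isolated peaks, singled out after their values had been seen, the deposited reads gave 1 heart read and 0 midbrain reads: chromosome 6 at 67251473 to 67251663 and chromosome 11 at 76725582 to 76725787. They are nevertheless ranked 2692 and 2705, ahead of many peaks with 5 reads.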
